A study of Homo sapiens with 12 samples.

Results

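The anti-apoptotic members of the BCL2 family studied here were BCL2, BCL2L1, BCL2L2, MCL1 and BCL2A1. They were taken as the gene identifiers of the deposited count files whose Ensembl ID carries one of these symbols in GENCODE release 44. They were 5 of the 60675 identifiers in each file, 93.2% of which were found in GENCODE. All 5 passed the filter on low counts in both cell lines, and the smallest count of a member in any library was 41, for BCL2L1.

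Proteins of this family sit on the outer membrane of mitochondria, where they bind and restrain BAX and BAK1, the effectors that permeabilise that membrane during apoptosis. BH3-only proteins such as BIM, PUMA and HRK start apoptosis by occupying the hydrophobic groove with which the anti-apoptotic members hold the effectors. Venetoclax (ABT-199) is a BH3 mimetic that fills this groove in BCL2 with high selectivity. The proteins encoded by BCL2L1 (BCL-XL), MCL1, BCL2L2 (BCL-W) and BCL2A1 (BFL-1) have the same fold but are not its targets, and in lymphoid cells high levels of them are known to lower sensitivity to it.

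RNA was sequenced from SUDHL6 and SUDHL16, established lines of diffuse large B cell lymphoma, a tumour of mature B cells. Each was represented by its parental form and by a venetoclax-resistant derivative, with 3 libraries in each of the 4 groups. The resistant derivatives came from long culture in rising doses of venetoclax and grew at 10 times the starting IC50. The labels do not say whether the drug was present at harvest or whether the libraries of a group came from separate cultures. The comparisons ask how far transcripts of the drug's target and of its relatives differ between resistant and parental cells of each line. The lines were prepared with different library kits and run on different sequencers, so line and method cannot be told apart. Total counts ran from 33992784 to 40885665 per library in SUDHL6 and from 4131927 to 22068221 in SUDHL16.

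The parental SUDHL16 library CE-26 stood apart from the others and had the smallest total, 4131927. It held counts for 34938 genes, against 20896 to 24655 in the other libraries of that line. Protein-coding genes took 55.4% of its counts, against 84.3% to 90.2% in the others, and identifiers absent from GENCODE took 31.9%. For that reason the SUDHL16 results for the members are given with and without CE-26, and for other genes where CE-26 decides a call, turns a sign or moves a value strongly.

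Levels are given as CPM, counts scaled to the size of each library after TMM correction of that size for composition. A gene was called where edgeR's quasi-likelihood test gave a Benjamini-Hochberg adjusted p under 0.05 over all genes tested and the fold change was at least 1.5. Intervals are 95% confidence intervals of the log2 fold change, resistant over parental. These p-values measure only the spread between the libraries at hand. In bulk RNA, fewer cells that express a gene and less RNA in each cell cannot be told apart.

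In SUDHL6, resistant cells had more MCL1 and less BCL2A1 transcript, while BCL2 and BCL2L1 were lower by amounts under the fold needed for a call. BCL2L2 did not pass the test there. In SUDHL16, resistant cells had several times more BCL2L1 transcript, and BCL2A1 was higher in each of their 3 libraries. Of the 5 members, 2 were called in SUDHL6, where 8.96% of 16662 genes tested were called. The raised member was MCL1, beside 4.31% of all genes called and raised, and the lowered member was BCL2A1, beside 4.65% called and lowered. In SUDHL16 only BCL2L1 was called among the 5 members, where 5.30% of 15708 genes were called, 3.20% raised and 2.10% lowered. Without CE-26, BCL2L1 and BCL2A1 were both called and raised in SUDHL16, beside 10.0% of 16280 genes called, 6.73% raised and 3.32% lowered. Parental and resistant libraries did not overlap for any of the 5 members in SUDHL6, but 47.9% of all genes tested there also had groups that did not overlap. The groups did not overlap for 3 members in SUDHL16 (BCL2L1, BCL2L2 and BCL2A1), beside 26.6% of all genes tested.

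**Figure D1:**
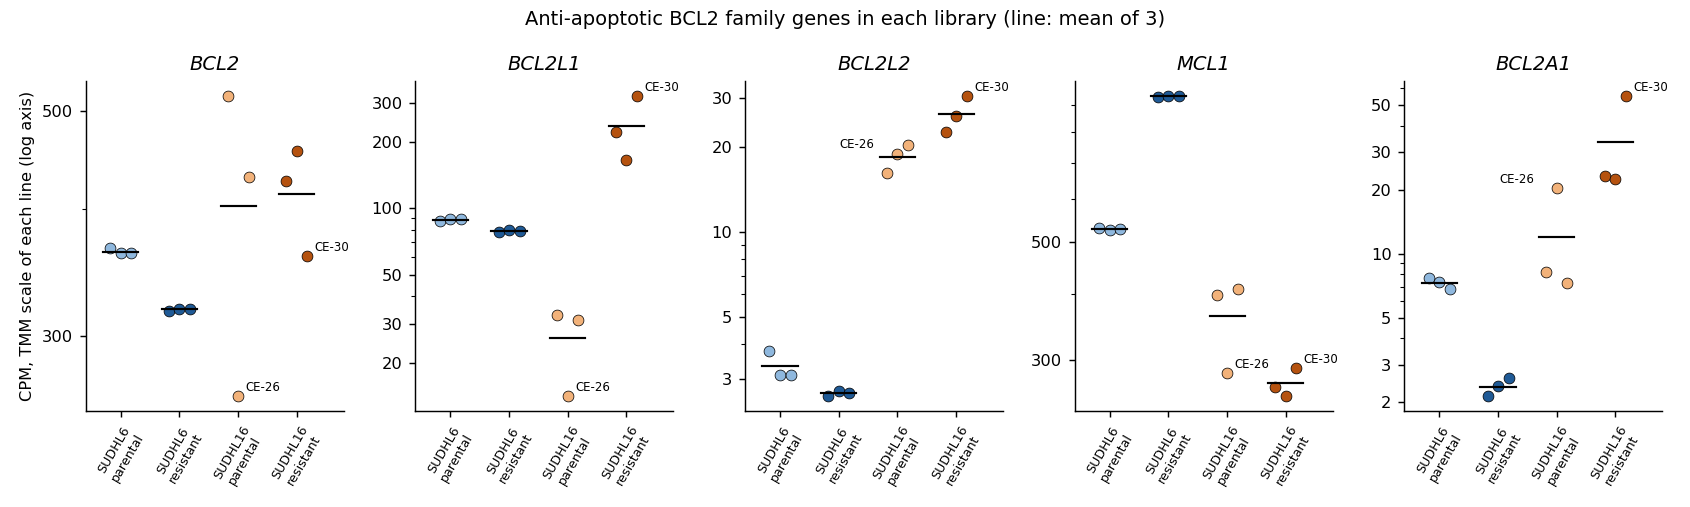
CPM of each of the 5 members on a log axis, with a point for each of the 12 libraries and a line at the mean of the 3 libraries of each group. All 5 members separate the groups of SUDHL6, as 47.9% of all genes tested do. BCL2L1, BCL2L2 and BCL2A1 separate those of SUDHL16, as 26.6% of all genes do, while the points of BCL2 and MCL1 overlap there.

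BCL2 (ENSG00000171791) lies on the minus strand of chromosome 18 (GRCh38 63123346 to 63320128) and encodes the target of venetoclax. In parental SUDHL6 its level was 366 CPM in CE-7, 362 CPM in CE-8 and 362 CPM in CE-9. In resistant SUDHL6 it was 317 CPM in CE-10, 319 CPM in CE-11 and 319 CPM in CE-12. All resistant libraries of SUDHL6 were thus below all parental ones, by a margin far wider than the spread within groups. The log2 fold change was -0.19 (SE 0.0175, interval -0.23 to -0.15, adjusted p = 2.65e-06), a 1.14-fold lower level that is under the 1.5-fold needed for a call. In parental SUDHL16 the level was 518 CPM in CE-25, 261 CPM in CE-26 and 430.5 CPM in CE-27. In resistant SUDHL16 it was 427 CPM in CE-28, 457 CPM in CE-29 and 359.6 CPM in CE-30. CE-26 was the lowest and CE-25 the highest of these libraries, and the resistant ones lay between them. The log2 fold change of 0.04 (interval -0.69 to 0.77, adjusted p = 0.964) took the other sign without CE-26, -0.18 (interval -0.68 to 0.32, adjusted p = 0.699).

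BCL2L1 (ENSG00000171552) lies on the minus strand of chromosome 20 (31664452 to 31723989) and encodes BCL-XL, the long splice form of which protects cells from apoptosis. A RefSeq window before an annotated start (GRCh38.p14, minus strand) is shown here because BCL2L1 was the member called in SUDHL16, and 3 of the 5 members were in that table. Another BCL2L1 window in it, of which all 250 bases are exonic, is not shown and was not searched. The sequence is printed 5′ to 3′, with its 26 exonic bases left off, and capitals mark the letters TATAAA.

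BCL2L1, chr20:31723990-31724213: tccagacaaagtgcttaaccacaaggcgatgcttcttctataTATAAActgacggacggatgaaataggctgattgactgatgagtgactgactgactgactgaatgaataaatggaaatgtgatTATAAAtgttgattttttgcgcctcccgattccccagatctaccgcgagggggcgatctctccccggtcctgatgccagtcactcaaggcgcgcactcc

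Motif letters were searched on both strands. TATAAA occurred 2 times in this window, and 8.48% of the 35116 promoters in the table hold it in a window of 224 bases. The STAT letters TTCNNNGAA (6.08% of promoters), the NF-kappaB letters GGNNTTTCC (4.87%) and the ETS letters GGAAGT (16.4%) had 0 matches in it. The E-box CACGTG (5.51%) and the AP-1 letters TGANTCA (6.07%) had 0 matches as well, and no matches of different motifs overlapped.

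In parental SUDHL16, BCL2L1 stood at 32.7 CPM in CE-25, 14.1 CPM in CE-26 and 31.2 CPM in CE-27. In resistant SUDHL16 it stood at 222 CPM in CE-28, 166 CPM in CE-29 and 322 CPM in CE-30. The lowest resistant library was therefore far above the highest parental one, with no overlap, and the resistant libraries spread widely among themselves. The group means were 26.01 ± 10.3 CPM and 236.7 ± 78.9 CPM (SD, n = 3). BCL2L1 rose by a log2 fold change of 3.16 (SE 0.405, interval 2.24 to 4.09, adjusted p = 0.00391), or 8.96-fold. Without CE-26, whose BCL2L1 level was the lowest, the log2 fold change was 2.90 (interval 2.15 to 3.65, adjusted p = 0.00115), or 7.47-fold. It was called in each of the 14 alternatives run, with log2 fold changes from 2.60 to 3.36.

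In SUDHL6 the same gene moved little and in the other direction. Its level was 87.4 CPM in CE-7, 89.1 CPM in CE-8 and 89.3 CPM in CE-9 of the parental line. In the resistant line it was 78.1 CPM in CE-10, 80.0 CPM in CE-11 and 78.5 CPM in CE-12. All resistant libraries lay below all parental ones, and the log2 fold change was -0.17 (SE 0.026, interval -0.22 to -0.11, adjusted p = 2.46e-04), under the fold needed for a call. The antisense gene ABALON covers 1735 exonic bases of BCL2L1 on the opposite strand. It held 71 to 95 counts per library in SUDHL6 and 11 to 102 in SUDHL16, against 41 to 7569 for BCL2L1 in SUDHL16. How reads on shared bases were assigned is not stated in the sources used here, and the split between splice forms of BCL2L1 cannot be read from gene counts.

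MCL1 (ENSG00000143384) lies on the minus strand of chromosome 1 (150560895 to 150579738) and encodes a short-lived protein on which normal and malignant B cells lean for survival. Parental SUDHL6 had 530.4 CPM in CE-7, 527 CPM in CE-8 and 528 CPM in CE-9. Resistant SUDHL6 had 931 CPM in CE-10, 935 CPM in CE-11 and 934 CPM in CE-12. The resistant libraries were all higher, and the libraries within each group lay close together, with SDs of 1.93 and 1.88 CPM. MCL1 rose by a log2 fold change of 0.82 (SE 0.0142, interval 0.79 to 0.85, adjusted p = 1.85e-12), or 1.77-fold. Parental SUDHL16 had 397 CPM in CE-25, 284 CPM in CE-26 and 408 CPM in CE-27. Resistant SUDHL16 had 267 CPM in CE-28, 257 CPM in CE-29 and 290.3 CPM in CE-30. CE-26 reached into the range of the resistant libraries, and the other parental libraries lay above that range. The log2 fold change of -0.42 (interval -1.02 to 0.18, adjusted p = 0.445) was not called, nor was that of -0.56 without CE-26 (interval -1.01 to -0.11, adjusted p = 0.125). The lncRNA gene ADAMTSL4-AS1 shares 328 exonic bases with MCL1 on the same strand, with 8 to 40 counts in SUDHL6 libraries and 69 to 253 in SUDHL16 libraries. MCL1 itself had at least 825 counts in each library.

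BCL2A1 (ENSG00000140379) lies on the minus strand of chromosome 15 (79960892 to 79971196) and encodes BFL-1, a survival protein induced by NF-kappaB in activated B cells. Its RefSeq window is shown because the gene was called in SUDHL6 and, once CE-26 was left out, in SUDHL16. Capitals mark the motif letters found, on either strand, printed 5′ to 3′ on the minus strand of GRCh38.p14.

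BCL2A1, chr15:79971197-79971446: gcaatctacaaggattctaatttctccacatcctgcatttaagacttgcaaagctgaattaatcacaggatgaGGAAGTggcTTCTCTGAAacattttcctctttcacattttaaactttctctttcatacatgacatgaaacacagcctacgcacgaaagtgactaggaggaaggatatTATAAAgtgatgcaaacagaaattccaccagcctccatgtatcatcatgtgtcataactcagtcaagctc

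The capitals are, in order, the ETS letters GGAAGT (19.5% of promoters hold them in 250 bases), the STAT letters TTCNNNGAA (6.57%) and TATAAA (10.7%). Each occurred 1 time in these 250 bases and no motif overlapped another. The NF-kappaB letters GGNNTTTCC (5.48%), CACGTG (6.34%) and TGANTCA (6.57%) had 0 matches. No match says only that these letters are not in this window.

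Parental SUDHL6 had BCL2A1 at 7.67 CPM in CE-7, 7.32 CPM in CE-8 and 6.83 CPM in CE-9. Resistant SUDHL6 had it at 2.14 CPM in CE-10, 2.38 CPM in CE-11 and 2.59 CPM in CE-12. Every resistant library was under every parental one, on counts of 86 to 96 against 248 to 278. BCL2A1 fell by 1.62 on the log2 scale (SE 0.119, interval -1.88 to -1.36, adjusted p = 3.49e-07), a 3.07-fold lower level. When all 12 libraries shared a single fit, and with it the wider spread of SUDHL16, neither MCL1 (adjusted p = 0.0968) nor BCL2A1 (adjusted p = 0.145) was called in SUDHL6.

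Parental SUDHL16 had BCL2A1 at 8.21 CPM in CE-25, 20.3 CPM in CE-26 and 7.26 CPM in CE-27. Resistant SUDHL16 had it at 23.04 CPM in CE-28, 22.4 CPM in CE-29 and 55.0 CPM in CE-30. The groups did not overlap, although CE-26, with 59 counts, came close to the lower resistant libraries and CE-30 stood well above them. The log2 fold change of 1.55 (SE 0.516, interval 0.37 to 2.73, adjusted p = 0.143) was not called. Without CE-26 it was 2.12 (interval 1.10 to 3.15, adjusted p = 0.0217), or 4.36-fold, and called. Across the 14 alternatives its adjusted p ran from 0.0025 to 0.437 and it was called in 6.

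BCL2L2 (ENSG00000129473) lies on the plus strand of chromosome 14 (23298790 to 23311751) and encodes BCL-W, a survival protein of sperm and nerve cells above all. Its levels in SUDHL6 were low, at 2.61 to 3.79 CPM. The parental level there was 3.33 ± 0.399 CPM and the resistant level 2.67 ± 0.057 CPM (SD, n = 3), and the log2 fold change was -0.32 (interval -0.62 to -0.01, adjusted p = 0.0965). CPM are scaled within each line, so levels in different lines are not on a common scale and were not compared by a test. In SUDHL16 BCL2L2 was at 16.3 to 20.4 CPM in parental and 22.6 to 30.4 CPM in resistant libraries. Its log2 fold change there was 0.50 (interval -0.07 to 1.08, adjusted p = 0.331). BCL2L2 was called in neither line, with and without CE-26. The gene PPP1R3E shares 315 exonic bases with it on the opposite strand. PPP1R3E had 1494 to 2148 counts in SUDHL6 libraries, against 97 to 129 for BCL2L2, and 115 to 1296 in SUDHL16 libraries, against 55 to 715. The part of these shared bases in the levels of BCL2L2 was not tested.

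**Figure D2:**
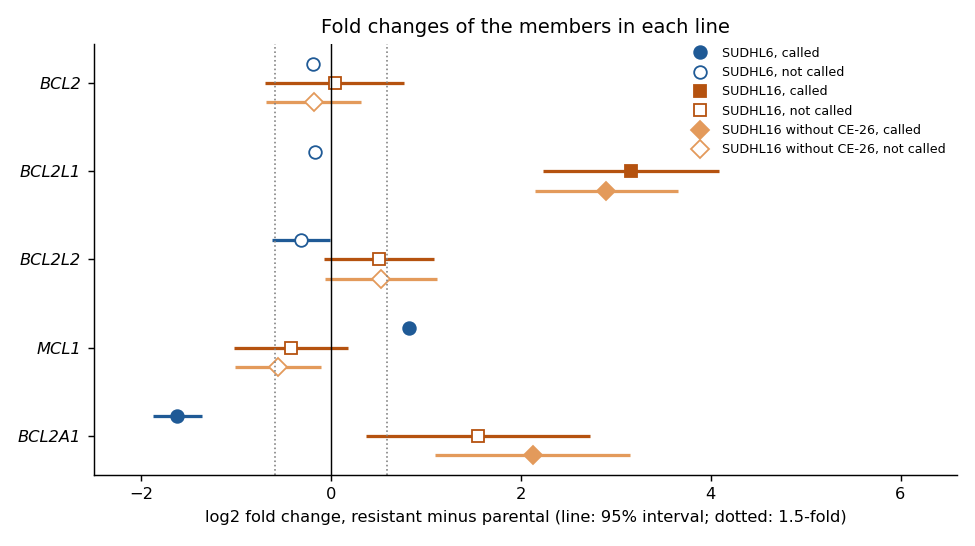
Log2 fold change of each member, resistant over parental, in SUDHL6, in SUDHL16 and in SUDHL16 without CE-26, with bars for 95% confidence intervals and dotted lines at a fold of 1.5 either way. The intervals are narrow in SUDHL6 and wide in SUDHL16, and BCL2L1 in SUDHL16 lies farthest from 0 at 3.16.

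The change itself was then compared between the lines, as the interaction of line and resistance in 1 fit of 12 libraries. It differed for 3 of the 5 members, beside 7.16% of 19621 genes tested. For BCL2L1 the log2 fold change of SUDHL16 was larger than that of SUDHL6 by 3.33 (SE 0.446, adjusted p = 8.63e-04), and for BCL2A1 by 3.26 (SE 0.572, adjusted p = 0.00472). Both held in all 18 alternatives run, at 2.72 to 3.56 for BCL2L1 and at 2.72 to 3.71 for BCL2A1. The test is of the difference between the lines, and BCL2A1 itself was not called in SUDHL16 with all libraries. For MCL1 the difference was -1.22 (SE 0.263, adjusted p = 0.0158), with the higher fold change in SUDHL6. That difference ran from -1.48 to -1.07 over 18 alternatives. It passed in 6 of them, so its call did not rest firmly on these libraries. The call was lost when any 1 of CE-25, CE-27, CE-28, CE-29 or the SUDHL6 libraries was left out, at adjusted p = 0.0519 to 0.0666. Without CE-26 the difference was -1.42 (adjusted p = 3.97e-05). The differences for BCL2L2, 0.86 (adjusted p = 0.0871), and for BCL2, 0.24 (adjusted p = 0.768), did not pass.

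Levels of different genes can be set side by side per kilobase of exon, which corrects for length. In parental SUDHL6 MCL1 led with 84.9 ± 0.311 CPM per kilobase, ahead of BCL2 with 28.8 ± 0.209 and BCL2L1 with 21.1 ± 0.252 (SD, n = 3). BCL2A1 at 7.31 ± 0.421 and BCL2L2 at 0.688 ± 0.0825 CPM per kilobase came last. Resistant SUDHL6 had the same order, with MCL1 at 150.0 ± 0.302 and BCL2 at 25.2 ± 0.0839 CPM per kilobase, and no neighbours in the order overlapped in either group. The distance between MCL1 and the rest was thus wider in the resistant cells.

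Parental SUDHL16 also had MCL1 first, at 58.4 ± 11.1 CPM per kilobase, and BCL2 next, at 31.97 ± 10.3. BCL2A1 followed at 11.99 ± 7.32, BCL2L1 at 6.20 ± 2.46 and BCL2L2 at 3.83 ± 0.436 CPM per kilobase, and the values of these 3 overlapped from each to the next. The place of BCL2A1 above BCL2L1 rested on CE-26, since without it they stood level, at 7.78 and 7.61 CPM per kilobase (n = 2). In resistant SUDHL16 BCL2L1 came first, at 56.4 ± 18.8 CPM per kilobase, with 52.9 in CE-28, 39.6 in CE-29 and 76.7 in CE-30. MCL1 stood at 43.7 ± 2.72, and its libraries overlapped those of BCL2L1 and of BCL2A1, so the first place between them was not separated by the spread. BCL2A1 at 33.6 ± 18.8 and BCL2 at 32.9 ± 3.97 CPM per kilobase also overlapped, and with the length of the canonical transcript these last 2 changed places. BCL2L2 was lowest in resistant SUDHL16, at 5.43 ± 0.814 CPM per kilobase.

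Summed over the 5 members, transcripts per kilobase were 142.8 ± 0.674 in parental and 197.0 ± 0.759 in resistant SUDHL6 (SD, n = 3). They were 112.4 ± 16.1 in parental and 172.0 ± 36.5 in resistant SUDHL16, where the parental libraries reached at most 124.4 and the resistant ones began at 145.0. The sum was higher in resistant libraries of both lines, and MCL1 in SUDHL6 and BCL2L1 in SUDHL16 added most to it. MCL1 went from 59.4% ± 0.145 to 76.2% ± 0.141 of the sum in SUDHL6. In SUDHL16 MCL1 went from 51.7% ± 3.39 to 25.9% ± 3.54 while BCL2L1 went from 5.37% ± 1.55 to 32.3% ± 4.46. BCL2, the target of the drug, made up 20.2% ± 0.0543 and then 12.8% ± 0.0102 of the sum in SUDHL6, and 27.9% ± 5.54 and then 19.9% ± 5.98 in SUDHL16. BCL2A1 made up 5.12% ± 0.273 and then 1.21% ± 0.112 in SUDHL6, and 11.5% ± 8.84 and then 18.7% ± 6.26 in SUDHL16, where single libraries reached 21.7% (CE-26) and 25.9% (CE-30). Without CE-26 its parental share in SUDHL16 was 6.39% (n = 2). These sums and shares are descriptions and were not tested.

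**Figure D3:**
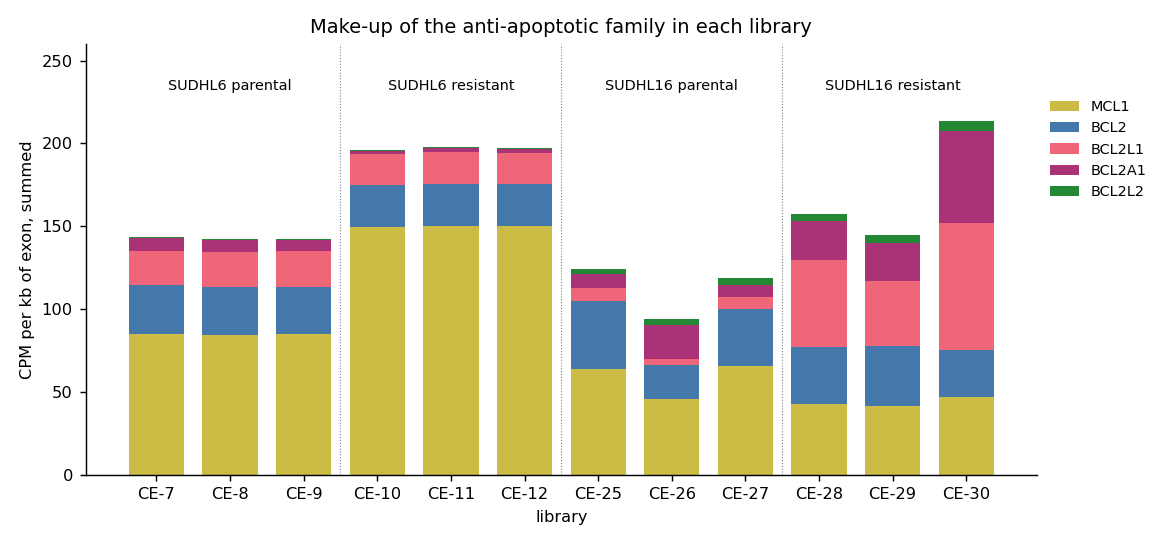
CPM per kilobase of exon summed over the 5 members, as 1 stacked bar per library with a part for each member. MCL1 takes most of each bar in SUDHL6, and the BCL2L1 part is wide in the 3 resistant SUDHL16 libraries.

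The members lie on 5 different chromosomes, and the genes around each were read for comparison. Of 17 tested protein-coding genes within 1 Mb of BCL2L1, 16 had a positive log2 fold change in SUDHL16, with a median log2 fold change of 1.18 beside -0.02 over all genes. Of these, 7 were called and raised, and without CE-26 it was 12 of 17 with a median of 1.39. Within 5 Mb the median was 0.72 over 63 genes, of which 12 were called, all raised, and without CE-26 it was 0.88, with 24 called and raised. BCL2L1, at 3.16, was above this local median. The medians were the same with DUSP15, which had 0 counts in a whole group, set at its bound, as they were near BCL2 for HMSD. In SUDHL6 the median around BCL2L1 was 0.11, with 2 of 17 called and raised. The neighbour before it in SUDHL16, HM13, an intramembrane protease, had a log2 fold change of 0.84 (adjusted p = 0.0612), and 0.77 (adjusted p = 0.0472) without CE-26. It was called in 4 of 14 alternatives. TPX2, a spindle assembly factor on the other side, had 0.95 (adjusted p = 0.153). In SUDHL6 the nearest tested gene before BCL2L1 was ID1, an inhibitor of bHLH factors, which rose by 1.55 (adjusted p = 7.44e-08), while TPX2 stood at 0.20.

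BCL2A1 also lay among genes with higher levels in resistant SUDHL16. Of 10 tested genes within 1 Mb, 9 were higher, with a median log2 fold change of 0.89. By edgeR 0 of the 10 were called, with 7 at an unadjusted p under 0.05, while DESeq2 called 6 and voom 7, all raised. Without CE-26 all 10 were higher, 4 were called and the median was 1.54. Within 5 Mb the median was 0.84, with 52 of 62 genes higher and 14 called, all raised. Without CE-26, 61 of 62 were higher and 27 called and raised. The nearest neighbours were ST20-MTHFS, a readthrough gene, at 2.30 (adjusted p = 0.0728; without CE-26 2.70, adjusted p = 0.0181), and ZFAND6, a zinc finger gene, at 0.83 (adjusted p = 0.0803). In SUDHL6 the median around BCL2A1 was -0.04 over 9 genes, and by edgeR, DESeq2 and voom 0 were called, with 2 at an unadjusted p under 0.05. There ZFAND6 stood at -0.04 and ST20-MTHFS at -0.85, without a call. With single libraries left out it ran from -1.17 (adjusted p = 0.0251, without CE-7) to -0.21 (adjusted p = 0.705, without CE-9), and it was called in 1 of 13 alternatives.

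Around the other members the medians in SUDHL16 lay nearer to 0 than around BCL2L1 and BCL2A1, which was not so in SUDHL6. The 7 genes tested near BCL2 had a median of -0.30 in SUDHL6, with 1 called and lowered, and the 9 tested in SUDHL16 had a median of -0.24, or -0.12 without CE-26, with 2 called and lowered either way. Next to BCL2 lie PHLPP1, a phosphatase of AKT, at -0.24 in both lines (-0.12 in SUDHL16 without CE-26), and KDSR, an enzyme of sphingolipid synthesis, at -0.21 in SUDHL6 and 0.20 in SUDHL16. Near MCL1, 51 genes had a median of 0.17 in SUDHL6, with 5 called and raised and 1 called and lowered, and of 0.07 in SUDHL16. In SUDHL16 edgeR called 0 of those 51, with 4 higher and 2 lower ones at an unadjusted p under 0.05. There DESeq2 called 3 raised and 2 lowered genes, and voom 3 raised and 1 lowered. ECM1, an extracellular matrix gene beside MCL1, rose by 0.93 in SUDHL6 (adjusted p = 7.41e-04), and stood at -0.90 in SUDHL16 without a call. ENSA, a phosphatase inhibitor of mitosis on the other side, stood at 0.15 and -0.06, and ADAMTSL4, whose span overlaps MCL1, at -0.13 and -0.09 in SUDHL6 and SUDHL16. Without CE-26 both were of the other sign in SUDHL16 and not called, ENSA at 0.0047 and ADAMTSL4 at 0.9958. Near BCL2L2, 55 genes had a median of 0.06 in SUDHL6 and 0.11 in SUDHL16, with 3 and 2 called. Without CE-26, 1 of the genes near MCL1 and 5 of those near BCL2L2 were called in SUDHL16. PABPN1, which binds poly(A) tails, stood at -0.16 in SUDHL6 and -0.44 in SUDHL16 beside it, and C14orf119 at 0.05 and -0.04. PPP1R3E, a phosphatase subunit of glycogen metabolism whose span overlaps BCL2L2, stood at -0.42 and 0.33, also without a call.

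**Figure D4:**
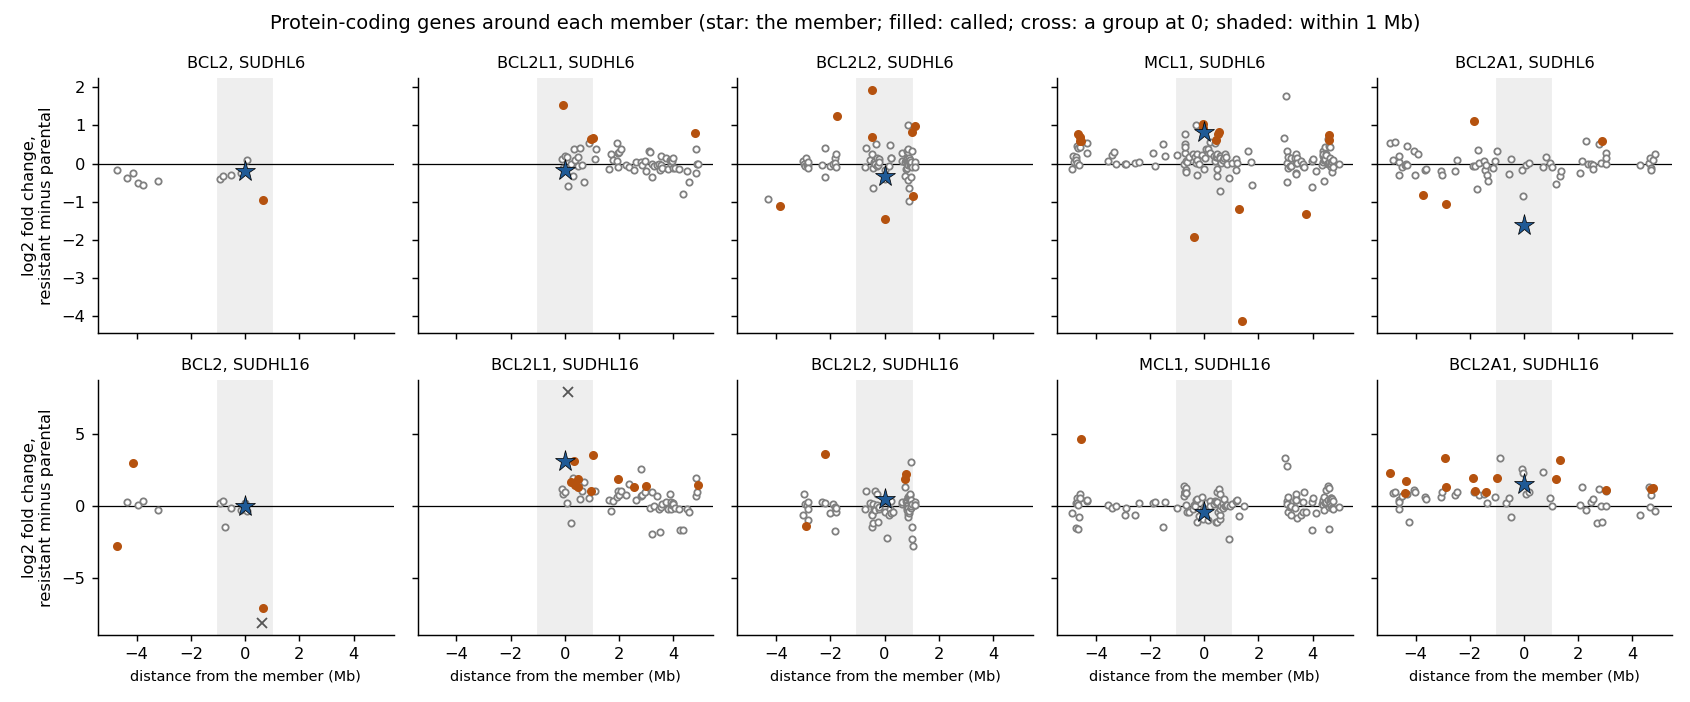
Log2 fold change of tested protein-coding genes against distance in megabases from each member (star), in each line, with filled points for called genes and shading within 1 Mb. Around BCL2L1 and BCL2A1 most points lie above 0 in SUDHL16, with medians within 1 Mb of 1.18 and 0.89, while crosses mark genes with a group at 0 counts.

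The partners that the members bind were read next. BAX and BAK1, the effectors at the mitochondrial membrane, and BOK, their relative, gave 0 calls of 3 tested genes in SUDHL6 and 0 of 2 in SUDHL16 by edgeR, DESeq2 and voom. By edgeR 1 and 0 of them had an unadjusted p under 0.05, and the medians were 0.24 and 0.13, the latter -0.0013 without CE-26. In SUDHL6, BAX averaged 89.1 ± 2.03 CPM before and 88.6 ± 5.15 CPM after resistance (SD, n = 3), with a log2 fold change of -0.01 (interval -0.09 to 0.08). In SUDHL16 it was at 44.5 ± 7.99 and 44.6 ± 8.58 CPM, with an interval of -0.56 to 0.56. BAK1 had a log2 fold change of 0.24 (adjusted p = 7.13e-05) in SUDHL6, under the fold needed for a call, and 0.25 (adjusted p = 0.702) in SUDHL16, where it was 0.0605 without CE-26. Transcripts of the effectors thus gave no call in either line.

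Among the BH3-only initiators, 3 of 8 tested were called and lowered in SUDHL6, beside 4.65% of all genes. There 4 of the 8 had a positive log2 fold change, with a median of -0.22. In SUDHL16 1 of 7 was called and lowered, beside 2.10% of all genes, and 2 had a positive log2 fold change, with a median of -0.26. HRK, which binds BCL-XL above all, fell in both lines. Its level went from 43.9 ± 2.04 to 16.4 ± 0.875 CPM in SUDHL6 (log2 fold change -1.42, adjusted p = 1.55e-09). In SUDHL16 it was 18.7 CPM in CE-25, 20.3 CPM in CE-26 and 10.6 CPM in CE-27, against 1.34 CPM in CE-28, 1.79 CPM in CE-29 and 3.40 CPM in CE-30. These groups did not overlap, and the log2 fold change was -2.91 (SE 0.505, adjusted p = 0.0147). The call was lost when CE-25, CE-28 or CE-29 was left out, at adjusted p = 0.0556, 0.0707 and 0.0889, in 3 of 14 alternatives.

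BCL2L11, which encodes BIM, fell in SUDHL6 from 65.3 ± 0.694 to 41.4 ± 1.48 CPM (log2 fold change -0.66, adjusted p = 1.34e-08). In SUDHL16 its log2 fold change was -0.29 (interval -0.93 to 0.35, adjusted p = 0.647). BBC3, which encodes PUMA, fell in SUDHL6 from 7.63 ± 0.432 to 4.32 ± 0.243 CPM (log2 fold change -0.82, adjusted p = 3.73e-05). In SUDHL16 BBC3 leaned the other way, at 6.56, 19.97 and 3.48 CPM in CE-25, CE-26 and CE-27 and at 24.6, 14.1 and 16.7 CPM in CE-28, CE-29 and CE-30. CE-26 was inside the range of the resistant libraries, and the log2 fold change of 0.96 (adjusted p = 0.449) became 1.89 (adjusted p = 0.0256) and called without it, in an adjusted p range of 0.00388 to 0.692 over 14 alternatives. PMAIP1, which encodes the MCL1 partner NOXA, had a log2 fold change of -0.45 in SUDHL6 (adjusted p = 5.66e-06), under the fold needed for a call, and -0.26 in SUDHL16 (adjusted p = 0.673).

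**Figure D5:**
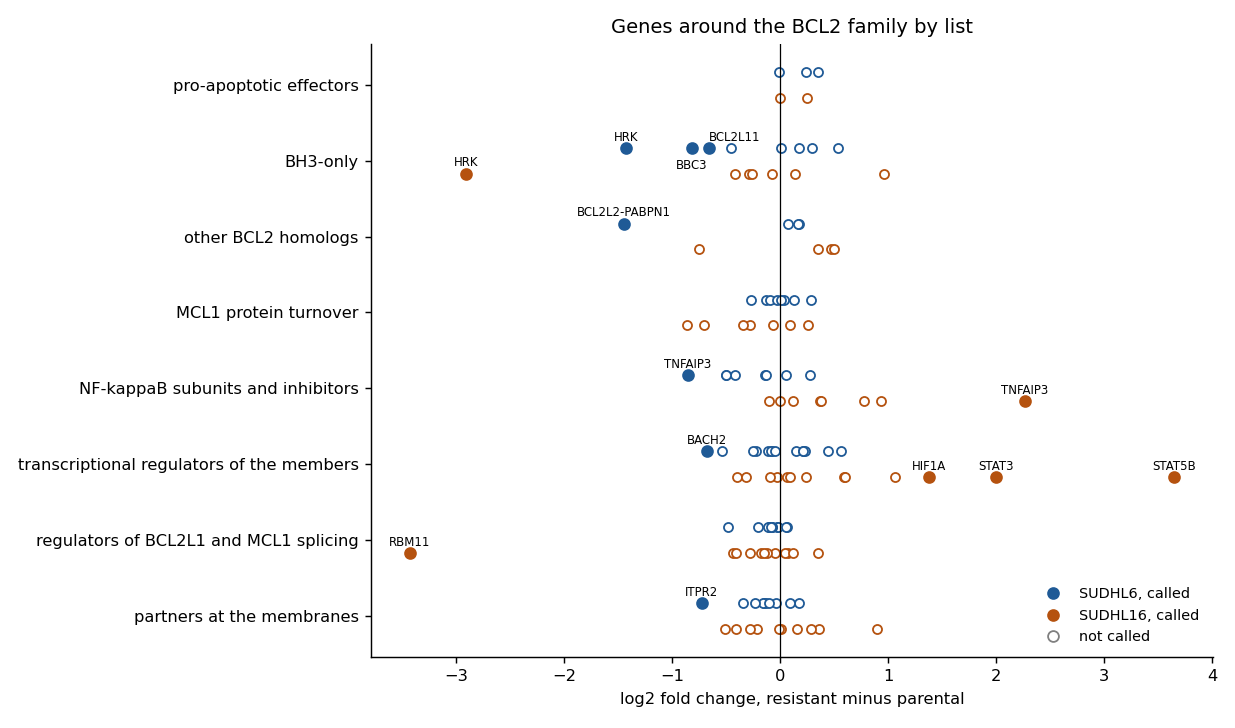
Log2 fold change, resistant over parental, of the tested genes of 8 pathway lists in each line, with filled points for called genes. STAT5B, STAT3 and TNFAIP3 lie far to the right in SUDHL16, at 3.65, 1.999 and 2.27, and HRK lies to the left in both lines.

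A list of transcription factors known to act on the members came next. Of 14 tested, 3 were called and raised in SUDHL16, beside 3.20% of all genes, and 4 without CE-26, beside 6.73%. There 10 of the 14 had a positive log2 fold change, with a list median of 0.42. In SUDHL6 1 was called and lowered, beside 4.65% of all genes, and 6 had a positive log2 fold change, with a median of -0.06. STAT5B, a cytokine-activated factor known to drive BCL2L1, was at 9.86, 10.3 and 11.9 CPM in CE-25, CE-26 and CE-27 of parental SUDHL16. In resistant SUDHL16 it was at 133 CPM in CE-28, 140.3 CPM in CE-29 and 129.9 CPM in CE-30. All resistant libraries lay far above the parental ones, with little spread in either group, a 12.5-fold rise (log2 fold change 3.65, SE 0.229, adjusted p = 4.21e-04). In SUDHL6 its log2 fold change was 0.21 (adjusted p = 5.43e-04), and the difference between the lines was 3.46 (adjusted p = 1.29e-06). STAT3, its relative, rose in SUDHL16 from 34.9 ± 2.92 to 139.3 ± 30.6 CPM (log2 fold change 1.999, adjusted p = 0.00368), with a line difference of 1.89 (adjusted p = 6.11e-04).

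STAT5A, named here after its values were seen, was at 0.165 CPM in CE-25 and 0.807 CPM in CE-27 but 12.05 CPM in CE-26, against 10.4 to 17.4 CPM in resistant SUDHL16. Its log2 fold change of 2.0002 (adjusted p = 0.423) was 4.94 (adjusted p = 0.00235) without CE-26, the library that decided it, and its adjusted p ran from 4.27e-04 to 0.661 over 14 alternatives. HIF1A, the oxygen-sensing factor, rose in SUDHL16 from 90.2 ± 8.84 to 234.7 ± 80.4 CPM (log2 fold change 1.38, adjusted p = 0.0391). That call was lost in 6 of 14 alternatives, among them those without CE-25, CE-27, CE-29 or CE-30, at adjusted p = 0.109, 0.141, 0.148 and 0.139. BACH2, a repressor that guards B cell identity, fell in SUDHL6 from 97.7 ± 2.19 to 60.9 ± 1.76 CPM (log2 fold change -0.68, adjusted p = 4.21e-09). In SUDHL16 the mean of BACH2 was 2.81 CPM in the parental and 2.41 CPM in the resistant group, with a log2 fold change of -0.10 (adjusted p = 0.973). CE-26 carried the parental mean, at 6.89 CPM against 0.992 and 0.559 CPM in CE-25 and CE-27, and without it the log2 fold change was 1.64 (adjusted p = 0.273), of the other sign and not called.

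Of the 8 NF-kappaB subunits and inhibitors, known regulators of BCL2A1 and BCL2L1, edgeR called 1 in each line, and it was TNFAIP3 both times. DESeq2 and voom also called 1, lowered, in SUDHL6 but each called 2, raised, in SUDHL16. TNFAIP3 encodes A20, an inhibitor that NF-kappaB itself induces. It fell in SUDHL6 from 41.3 ± 1.12 to 22.8 ± 0.418 CPM (log2 fold change -0.86, adjusted p = 2.00e-08) and rose in SUDHL16 from 10.1 ± 3.94 to 47.4 ± 14.5 CPM (log2 fold change 2.27, SE 0.386, adjusted p = 0.0138). The SUDHL16 call was lost without CE-29 (adjusted p = 0.0746) or CE-30 (adjusted p = 0.0721), with 12 of 14 alternatives passing. The difference between the lines was 3.20 (adjusted p = 3.83e-04), so TNFAIP3 parted the lines in the same directions as BCL2A1. The list medians were -0.28 in SUDHL6 and 0.37 in SUDHL16.

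Genes that control MCL1 protein turnover gave 0 calls by edgeR, of 8 tested in SUDHL6 and of 7 in SUDHL16, with 4 and 2 at an unadjusted p under 0.05. DESeq2 called 0 and 1 of them, and voom 0 and 2. The medians were -0.01 and -0.28. CDC20, an activator of the anaphase-promoting complex, was chosen here after its values were seen: its log2 fold change in SUDHL16 was -0.87 (adjusted p = 0.211), and without CE-26 -1.16 (adjusted p = 0.00892), called in 3 of 14 alternatives with adjusted p from 0.00816 to 0.507. Regulators of BCL2L1 and MCL1 splicing gave 0 calls of 12 in SUDHL6 by edgeR, DESeq2 and voom, with 7 at an unadjusted p under 0.05 by edgeR and a median of -0.08. In SUDHL16 4 of 12 had a positive log2 fold change, with a median of -0.13, or -0.28 without CE-26. By edgeR 1 was called and lowered there, beside 2.10% of all genes. It was RBM11, a tissue-restricted splicing factor that promotes the short form of BCL2L1 transcripts, which went from 7.40 ± 2.56 to 0.669 ± 0.119 CPM (log2 fold change -3.43, SE 0.578, adjusted p = 0.013). Its call was lost in 5 of 14 alternatives, among them those without CE-25, CE-28, CE-29 or CE-30, at adjusted p = 0.0507, 0.0774, 0.0818 and 0.0612. In SUDHL6 RBM11 stood at 0.530 and 0.377 CPM, with a log2 fold change of -0.48 (adjusted p = 0.29).

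Of the membrane partners of the family, 2 of 10 had a positive log2 fold change in SUDHL6, with a median of -0.14. By edgeR 1 was called and lowered there, beside 4.65% of all genes. It was ITPR2, a calcium channel of the endoplasmic reticulum whose release of calcium BCL2 restrains, from 65.4 ± 0.242 to 39.5 ± 1.51 CPM (log2 fold change -0.73, adjusted p = 6.20e-09). In SUDHL16 edgeR, DESeq2 and voom called 0 of 10, with 1 at an unadjusted p under 0.05 by edgeR and a median of 0.00, or -0.0644 without CE-26. ITPR2 there had a log2 fold change of 0.15 (adjusted p = 0.828), and of -0.0039 without CE-26. Of 6 further BCL2 homologs 4 were tested, with medians of 0.12 in SUDHL6 and 0.41 in SUDHL16, the latter 0.16 without CE-26. In SUDHL16 the same tools called 0 of 4, with 0 at an unadjusted p under 0.05 by edgeR. In SUDHL6 1 was called and lowered, beside 4.65% of all genes. This was BCL2L2-PABPN1, a readthrough gene that shares 815 exonic bases with BCL2L2 on the same strand. It was at 0.810 ± 0.401 and 0.289 ± 0.0934 CPM (log2 fold change -1.45, adjusted p = 0.0203), on 9 to 39 counts per library. That call was lost in 6 of 13 alternatives, among them those without CE-7, CE-8, CE-10 or CE-12, at adjusted p = 0.067, 0.103, 0.0737 and 0.0658. In the single fit of all 12 libraries this call and the SUDHL6 calls of HRK, BCL2L11, BBC3, BACH2, TNFAIP3, ITPR2, ID1 and ECM1 were lost, as those of the members were, at adjusted p of 0.0573 for HRK and above that for the others.

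The labelled cell type was checked against markers, and the most abundant gene of each list was taken over the mean of all 12 libraries. All 7 B cell markers were detected, with MS4A1 first over all libraries, though CD22 or PAX5 had the highest group mean in SUDHL16. Their summed level was 4078 to 4275 CPM in SUDHL6 and 3537 to 3998 CPM in SUDHL16 apart from CE-26, at 2413 CPM. Both lines thus carried B cell transcripts.

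The genes named from the other B-lineage lists were chosen after their values were seen. The 7 germinal centre markers, with BCL6 first, summed in SUDHL6 to 528 to 540.1 CPM in parental and 717 to 733 CPM in resistant libraries. There 2 of the 7 were called and raised, MYBL1 and LMO2, and 2 were called and lowered, MME among them. In SUDHL16 their sum was 1135 to 1488 CPM in parental and 1141 to 1319.9 CPM in resistant libraries. The 6 plasma cell markers summed in SUDHL6 to 535 to 536 CPM in parental and 335 to 339 CPM in resistant libraries. IRF4, the factor first in this list there, and XBP1 were called and lowered in SUDHL6. In the single fit of all 12 libraries LMO2 kept its call in SUDHL6 and the other genes named here lost theirs.

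In SUDHL16 the plasma cell sum was 271 to 293 CPM in parental and 255 to 309 CPM in resistant libraries, and MZB1 made up most of it, at 131 to 271 CPM. PRDM1 and XBP1, factors of plasma cell differentiation, were called and raised, 2 of 4 tested, with a list median of 2.86. MZB1 itself had a log2 fold change of -0.68 (adjusted p = 0.2) and was not called in the fit of its own line, but voom (-0.70, adjusted p = 0.0315) and the single fit of 12 libraries (-0.65, adjusted p = 0.0217) called it lowered. PRDM1 was at most 0.689 CPM in parental and 9.38 to 12.7 CPM in resistant libraries, and XBP1 at 8.13 to 24.2 and at 76.7 to 104.6 CPM. Without CE-26, 4 of 5 tested were raised, with IRF4 and TNFRSF17 added, and the median was 6.76, or 2.499 with the 2 genes that had a group at 0 counts set at their bound. The calls of PRDM1 and XBP1 were lost without CE-28 (adjusted p = 0.091 and 0.0522) and without CE-30 (adjusted p = 0.103 and 0.0612), and that of PRDM1 without CE-29 (adjusted p = 0.122). The part of these shifts in the results for the BCL2 family was not tested.

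Markers of other cells were read because CE-26 stood apart. The 3 erythroid markers, led by HBA1, summed to at most 0.199 CPM in SUDHL6. In SUDHL16 they summed to 133 CPM in CE-25, 754 CPM in CE-26, 81.0 CPM in CE-27, 71.9 CPM in CE-28, 2.87 CPM in CE-29 and 3.96 CPM in CE-30. They were thus highest in CE-26 and higher in parental than in resistant libraries. The 3 fibroblast markers, led by DCN, summed to 20.1, 35.5 and 19.7 CPM in CE-25, CE-26 and CE-27, to 0 CPM in CE-28 and to at most 0.425 CPM in CE-29 and CE-30. The 4 NK cell markers (led by NCAM1) reached 25.1 CPM, the 6 myeloid markers (FCGR3A) 12.1 CPM and the 4 epithelial markers (CDH1) 12.7 CPM in CE-26, against at most 1.24 CPM in any other library. The 6 T cell markers, led by TRAC, summed to 33.4 CPM in CE-26, to 18.5 to 28.5 CPM in the other SUDHL16 libraries and to at most 3.94 CPM in SUDHL6. FCGR3A and DCN were at 0 in all SUDHL6 libraries. Calls among these markers are named here after their values were seen. In SUDHL16 the fibroblast marker DCN was lowered (log2 fold change -6.47, adjusted p = 0.00267; without CE-26 -6.32, adjusted p = 0.000936) and was called in every alternative; as resistant libraries were near 0, its size is uncertain. The T cell marker CD3E was raised, from 1.16, 4.48 and 1.30 CPM in CE-25, CE-26 and CE-27 to 13.1, 13.4 and 10.85 CPM in CE-28, CE-29 and CE-30 (log2 fold change 2.59, adjusted p = 0.0455; without CE-26 3.34, adjusted p = 0.00131). It was not called with upper-quartile scaling (adjusted p = 0.0736), nor without CE-25 (0.123), CE-27 (0.123), CE-28 (0.162), CE-29 (0.183) or CE-30 (0.135). TRAC was not called (log2 fold change -0.38, adjusted p = 0.553). The NK cell marker KLRD1, too low to be tested in the main fit, was called as lowered without CE-26 (adjusted p = 0.0475) and in the single fit (adjusted p = 0.0367), and the erythroid markers HBA1 and HBB were called as lowered by voom only. NCAM1 was called as lowered only without filter (adjusted p = 0.0320). In SUDHL6 the epithelial marker KRT18 was raised (log2 fold change 1.22, adjusted p = 0.0465) at no more than 0.820 CPM; it was not called by DESeq2 (adjusted p = 0.0625), without filter (0.122), in the single fit (adjusted p of 1), nor without CE-7 (0.145), CE-8 (0.133), CE-10 (0.162), CE-11 (0.0636) or CE-12 (0.0814). Also in SUDHL6, KRT8 was called as raised only without CE-9 (adjusted p = 0.0497) and COL1A1 as lowered only without CE-10 (adjusted p = 0.00211). The part of these markers in the result was not tested, and BCL2L1 was called in SUDHL16 with and without CE-26.

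Patterns most like each member were sought by Pearson's r of log2 CPM over the 12 libraries after removal of each line's mean, among 13065 protein-coding genes. These values are descriptions with no p, and all genes share the same 12 libraries. The closest to BCL2L1 were CMIP at 0.993, PTPRA, a receptor phosphatase also on chromosome 20, at 0.992 and APLP2, a relative of the amyloid precursor, at 0.991. For MCL1 they were SLC7A7, an amino acid transporter, at 0.975, EEPD1 at 0.975 and RBM41 at 0.972. BCL2A1 was closest to SATB1, a chromatin organiser of lymphoid cells, at 0.947, then the peroxisomal enzyme HSD17B4 at 0.944 and NAA35 at 0.942. BCL2 followed DTD2 at 0.987, the condensin subunit NCAPD2 at 0.986 and CIP2A, an inhibitor of a phosphatase, at 0.982. BCL2L2 had looser matches, with ANKRD16 at 0.938, GNG10 at 0.929 and GRK5, a receptor kinase, at 0.927.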

How the data were processed

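Raw gene counts were used as the authors deposited them, 1 column per library of total RNA. Per the submitters' processing notes, reads were handled with Trim Galore, HISAT2, StringTie and edgeR on GRCh38; the annotation, strand setting and counting rule are not stated in the sources used here. Each line was fitted alone on all genes in edgeR 4.0.16 (R 4.3.3) with filterByExpr, TMM and the two-sided quasi-likelihood test, Benjamini-Hochberg adjusted over all genes tested. Differences between lines came from an interaction term over all 12 libraries. Alternatives were DESeq2 1.42.0, limma 3.58.1 voom with sample weights, upper-quartile scaling, library totals, no filter, protein-coding genes, a single fit, and each library left out in turn. Summaries used Python 3.11.15. The fits were also run on simulated counts, and no outcome of those runs is given here. Members and lists were chosen with earlier results of these data known. Named genes were the members, list genes called in either line, 5 further apoptosis genes (BAX, BAK1, BCL2L11, BBC3, PMAIP1), nearest and overlapping genes, and the 3 closest patterns per member.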

Additional observations from a re-analysis of the deposited data

Results flagged for a closer look

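The difference between the lines in the log2 fold change of resistant over parental cells, tested as an interaction over 12 libraries in edgeR, passed for 3 members. It was 3.33 for BCL2L1 and 3.26 for BCL2A1, both higher in SUDHL16, and -1.22 for MCL1, higher in SUDHL6. Of all 19621 genes tested, 7.16% passed. The difference for MCL1 passed in 6 of 18 alternatives, and those for BCL2L1 and BCL2A1 in all 18. The line and the library kit cannot be told apart. Groups of 3 libraries are too small for a test of single outlying libraries.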

How the results depend on the processing

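Of the members, BCL2L1 in SUDHL16 was called in 14 of 14 alternatives (2.60 to 3.36 on the log2 scale), and MCL1 (0.82 to 0.84) and BCL2A1 (-1.69 to -1.55) in SUDHL6 in 12 of 13. The exception was the single fit of all 12 libraries, which called 0 members in SUDHL6, with MCL1 at 0.82 and BCL2A1 at -1.62; that fit shares the wider spread of SUDHL16. In SUDHL16, 2 members were called under library totals, no filter, the single fit, voom, and without both CE-26 and CE-30 (chosen after seeing the data), and 1 to 2 when single libraries were left out. The second was BCL2A1, at 1.78 with library totals (adjusted p = 0.0481), 1.72 with no filter (adjusted p = 0.0285), 1.64 in the single fit (adjusted p = 0.0196), 1.84 with voom (adjusted p = 0.0025) and 1.55 without CE-26 and CE-30 (adjusted p = 0.0125). With single libraries left out it ran from 0.9955 (without CE-30) to 2.12 (without CE-26). BCL2L2 (0.40 to 0.64) and MCL1 (-0.62 to -0.32) in SUDHL16 were called in 0 of 14, with adjusted p for MCL1 from 0.0743 to 0.796.

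BCL2 in SUDHL16, called under no setting, turned sign with protein-coding genes only (-0.0081), upper-quartile scaling (-0.042), voom (-0.09) and without CE-26 and CE-30 (-0.10), and ran from -0.18 to 0.27 with single libraries left out. Its line difference was -0.0382 without CE-26 and ran up to 0.53 without other single libraries. BAX, called nowhere, turned sign in SUDHL6 with library totals (4.0e-04), upper-quartile scaling (0.008) and single libraries left out (-0.0399 to 0.0392). In SUDHL16 it did so with library totals (0.11), no filter (0.10), the single fit (0.0227), without CE-26 and CE-30 (0.0788) and with single libraries left out (-0.0849 to 0.18). BACH2 in SUDHL16 did so with library totals (0.30), no filter (0.0938), the single fit (0.62), voom (1.14), without CE-26 and CE-30 (0.75) and single libraries left out (-0.98 to 1.64). ITPR2 in SUDHL16 did so with voom (-0.0047), without CE-26 and CE-30 (-0.13) and single libraries left out (-0.0039 to 0.30).

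The line difference of MCL1 was lost with library totals (-1.15, adjusted p = 0.0929) and with no filter (-1.12, adjusted p = 0.2), and that of BCL2L2 passed with voom (0.78, adjusted p = 0.0443). With canonical transcript lengths, 3 of 5 members of resistant SUDHL16 had the same place in the order of levels. Within 5 Mb the median of neighbours was -0.34 for BCL2 and 0.0134 for BCL2L1 in SUDHL6 and 0.72 for BCL2L1 in SUDHL16, where it was 1.39 within 1 Mb without CE-26. The median log2 fold change of all genes in SUDHL16 was -0.02 with TMM, -0.11 with upper-quartile scaling and 0.11 with library totals. The cause was not tested for any of these shifts. CE-26 held few counts of BCL2L1, at 41, and of BCL2A1, at 59, and the part of its depth in the SUDHL16 results was not tested.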
